A study of Mus musculus with 18 samples.

Results

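The nuclear genes of the respiratory chain were followed in mouse regulatory T (Treg) cells of 6 genotypes. Members were the rows of the deposited expression table whose symbol begins Nduf followed by a, b, c, s or v and a digit (complex I), is Sdha, Sdhb, Sdhc or Sdhd (complex II), or begins Uqcr (complex III), Cox with a digit of 4 to 8 (complex IV) or Atp5 (ATP synthase, complex V). This gave 84 of 23953 rows, 37 for complex I, 4 for complex II, 8 for complex III, 18 for complex IV and 17 for complex V. The symbol rule also took in genes that are not subunits: Atp5s encodes a coupling factor of ATP synthase, Atp5sl is an older symbol of the complex I assembly gene Dmac2, and Cox7a2l encodes a factor of respiratory supercomplexes. It left out the complex I acyl carrier subunit Ndufab1 and cytochrome c1 (Cyc1), which are described with the other mitochondrial genes. Ndufa4 is counted here with complex I by its symbol, although its product is now placed in complex IV.

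Treg cells had been sorted by flow cytometry as CD4+CD25hi cells from C57BL/6 mice, with 3 libraries per genotype and 18 in all. Treg cells of 4 genotypes overexpressed microRNAs of the miR-23 cluster in T cells: miR-23 (miR-23 Tg), miR-24 (miR-24 Tg), miR-27 (miR-27 Tg) or the whole cluster (cluster Tg). DKO mice lacked both clusters, that of miR-23a and that of miR-23b, in T cells, and WT mice were the control. The labels of DKO and WT also carry the letters Tg, which they do not explain. Alleles were driven by CD4cre, per the series title, so that all T cells, and not Treg cells alone, carried them, and the ages of the mice are not given. Whether the 3 libraries of a group stem from separate mice is not stated, and p-values therefore measure the spread between these samples, which may be technical. All 5 comparisons with WT share the same 3 WT libraries.

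The respiratory chain of the inner mitochondrial membrane passes electrons from NADH (complex I) and succinate (complex II) through ubiquinone, complex III and cytochrome c to oxygen at complex IV. Complexes I, III and IV pump protons, and the ATP synthase uses the gradient to make ATP. Most subunits are encoded in the nucleus and are assembled with a small set of core subunits made in the mitochondrion, and Treg cells are known to rely more on oxidative phosphorylation than conventional effector T cells do. MicroRNAs lower target transcripts mainly through pairing of their bases 2 to 8, the seed, with sites in 3′ UTRs.

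The overexpressed microRNAs are shown because the seed, in capitals, defines the sites searched for in the members. The sequences are from RefSeq (GRCm38.p6), where the 3 lie together on chromosome 8, and the 3 seeds differ from each other.
mmu-miR-23a-3p: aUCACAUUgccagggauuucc
mmu-miR-24-3p: uGGCUCAGuucagcaggaacag
mmu-miR-27a-3p: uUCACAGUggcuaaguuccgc

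The members described at length below that hold a match are shown with the 7 bases complementary to the seed in capitals (AATGTGA for miR-23, CTGAGCC for miR-24 and ACTGTGA for miR-27). Sequences are on the transcript strand of GENCODE 3′ UTRs, and coordinates of the printed bases are those of GRCm38. Ndufa3 had a miR-23 match at chr7:3620130-3620158 (plus strand), and Ndufs4 had miR-23 matches at chr13:114288650-114288678 and chr13:114288506-114288534 and a miR-27 match at chr13:114288719-114288747 (minus strand). Cox7a2l had a miR-24 match at chr17:83502378-83502406 (minus strand), and Atp5sl had a miR-27 match at chr7:25625437-25625465 (plus strand).
Ndufa3, miR-23: tctccaataaaAATGTGAaaactaataac
Ndufs4, miR-23, upstream: atctcctaataAATGTGAcctttaaacta
Ndufs4, miR-23, downstream: tagagtttaccAATGTGAgtgcctggaat
Ndufs4, miR-27: atctctgcttgACTGTGActgaagtgtca
Cox7a2l, miR-24: aggaaatgtcaCTGAGCCatcactgagct
Atp5sl, miR-27: cactcctatcaACTGTGAttgatcctggc

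Values are RPKM (reads per kilobase of transcript and per megaread mapped), as the authors deposited them. Depth, estimated from the steps between low RPKM values, was about 20.9 to 32.1 megareads in a library, and between 10710 and 11121 genes reached 1 RPKM. At the microRNA loci of the transgenes, Mir27a stood at 50010 to 79110 RPKM in miR-27 Tg and 13710 to 24080 in cluster Tg, against 0 to 346.7 in WT, and was listed at 0 in the 3 DKO libraries. Mir23a (31030 to 38280 in miR-23 Tg, against 0 to 155.0 in WT) and Mir24-2 (7999 to 22320 in miR-24 Tg, against 0 to 50.3 in WT) were likewise high in the groups named for them. Summed over 7 Treg markers, including Foxp3, Il2ra and Ctla4, levels were 1693 to 2281 RPKM in the 5 other genotypes and 1869 to 2071 in WT. The 10 B cell markers were listed above 0 in each genotype and summed to 38.3 to 112.4 RPKM in miR-27 Tg, 41.2 to 96.6 in miR-24 Tg, 38.8 to 47.0 in miR-23 Tg, 30.1 to 46.4 in cluster Tg and 19.8 to 23.2 in DKO, against 19.8 to 25.3 in WT. Of 10 myeloid markers, 9 are in the table, and their sum was 16.5 to 113.8 RPKM in the 12 libraries that overexpress microRNAs and 7.40 to 10.7 in DKO, against 7.57 to 8.92 in WT. In bulk RNA, fewer cells of a type and less RNA per cell cannot be told apart.

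Respiratory chain genes were among the well expressed genes of these Treg cells. Of the 84 members, 77 reached 1 RPKM in at least 3 libraries, the minimum for testing, and 62 of these averaged at least 50 RPKM over the 18 libraries. Their median was 87.3 RPKM, beside 15.0 for the 11520 genes tested. By complex, the median mean level was 74.2 RPKM for 36 tested members of complex I, 84.8 for 4 of complex II, 114 for 8 of complex III, 135 for 13 of complex IV and 174 for 16 of complex V. RPKM is a level per length of transcript, but how it was computed here is not stated. For some members, much of the transcript was at least 97% identical to other annotated genes (Ndufs3 84.1%, Atp5h 80.1%, Atp5l 72.2%). Reads of such stretches can be split or lost, so the order of these medians is approximate.

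The 3 highest transcripts of complexes V, IV, III and I are given here, while the 4 complex II genes averaged 62.6 to 116 RPKM. Atp5e, the epsilon subunit of ATP synthase, was the most abundant member at 606.1 RPKM over all libraries, and in complex V it was followed by the catalytic beta subunit Atp5b at 486.8 and Atp5k, subunit e, at 389.3. Complex IV was led by Cox4i1 (449 RPKM), Cox6b1 (335.8) and Cox6a1 (262.3). Complex III was led by the hinge protein gene Uqcrh (384.6), Uqcr10 (183.9) and Uqcrq (147.8). Among complex I genes the highest were Ndufa4 (254.7), Ndufa3 (246.4) and Ndufa6 (185.3). The spread within a genotype could be as wide as the steps in this order: Atp5e had 503.5, 565.7 and 712.2 RPKM in the 3 DKO libraries, against 569.9, 602.0 and 612.3 in WT.

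**Figure D1:**
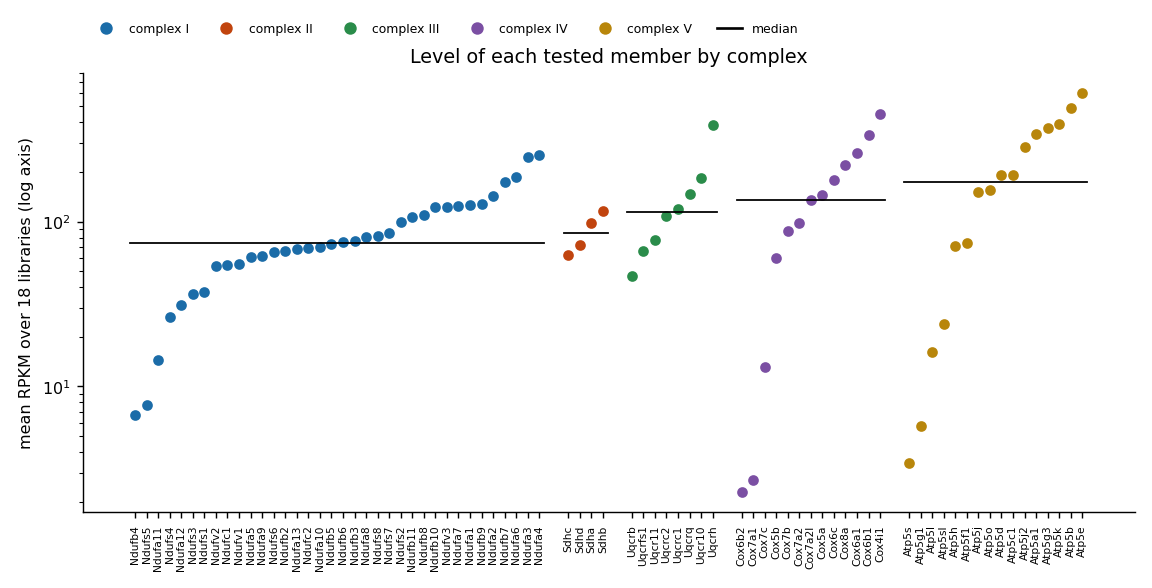
Mean RPKM over the 18 libraries (log axis) of the 77 tested members, 1 point each, ordered within complexes I to V, with a line at the median of each complex. The medians run from 74.2 RPKM for complex I to 174 for complex V, and Atp5e is highest at 606.1.

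Where a subunit has tissue isoforms, the broadly expressed one carried nearly all of the signal. Cox4i1 averaged 449 RPKM and the lung isoform Cox4i2 0.142; Cox6a1 averaged 262.3 and the heart and muscle isoform Cox6a2 0.202. The same held for Cox6b1 (335.8) over the testis isoform Cox6b2 (2.28), Cox7a2 (98.5) over the muscle isoform Cox7a1 (2.71), and Cox8a (219.4) over Cox8b (0.128). Cox7b stood at 87.3, while Cox7b2 and Cox8c were listed at 0 in the 18 libraries. Ndufa4l2, a gene induced by hypoxia, was at 0.0111 beside 254.7 for its paralogue Ndufa4. These isoform patterns were shared by the 6 genotypes: no library of any genotype had more than 4.67 RPKM of Cox7a1, 3.57 of Cox6b2 or 1.28 of Cox6a2.

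Subunit c of the ATP synthase is encoded by 3 genes that give the same mature protein. Atp5g3 averaged 370.9 RPKM, Atp5g1 5.72 and Atp5g2 0.0654. The Atp5g2 value is uncertain, because 88.2% of its annotated transcript was at least 97% identical to 2 other annotated genes, and reads from such copies can be split or lost. For Atp5g1 13.2% of the 4715-base transcript was at least 97% identical to 5 other annotated genes. Of those bases, 4252 are annotated 3′ UTR, so the copied part may be large beside the rest. The Atp5g1 value, and its distance from Atp5g3, are uncertain too. Of the 84 members, 7 were too low to test: Atp5g2, Cox4i2, Cox6a2, Cox7b2, Cox8b, Cox8c and Ndufa4l2.

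Ndufs5, an accessory subunit of complex I, had values that varied widely within genotypes. It was listed at 16.19, 21.78 and 1.81 RPKM in miR-23 Tg, at 0.0131, 0.0281 and 0.0101 in miR-24 Tg, at 16.19, 11.15 and 0.00326 in miR-27 Tg and at 20.51, 1.19 and 15.82 in cluster Tg. In DKO it was listed at 0.0556, 0.864 and 16.87, against 0.436, 9.34 and 7.40 in WT. Apart from miR-24 Tg, where the 3 libraries were near 0, each genotype held both high and low libraries. At the estimated depths a single read on its 680-base transcript is worth 0.0458 to 0.0704 RPKM, so that 4 libraries had values below 1 read. A stretch covering 46.9% of the transcript was at least 97% identical to another annotated gene. Its log2 fold changes against WT (1.19 for miR-23 Tg, and -3.01 for miR-24 Tg) did not pass and are not read further.

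The comparisons asked which subunit genes changed when each microRNA, the cluster, or the loss of both clusters was imposed on Treg cells. A gene was called when its limma p, adjusted by Benjamini-Hochberg over the 11520 genes, was under 0.05, and folds are on the log2(RPKM + 0.5) scale. Few members were called. In miR-27 Tg 1 of 77 rose (15.9% of all tested genes did) and 5 fell (12.7% of all tested genes), and in cluster Tg 6 rose (13.8% of all tested) and 3 fell (10.5%). In miR-24 Tg 0 rose, against 4.6% of all tested genes, and 1 fell, against 4.38%. In either direction, 11.7% of members were called in cluster Tg, beside 24.4% of all tested genes, and 7.79% in miR-27 Tg, beside 28.6%, so the members' shares lay below the background in those comparisons.

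In miR-23 Tg the limma test called 0 members in either direction, beside 0.156% of all tested genes higher and 0.2% lower. There 5 members (6.49%) had an unadjusted p under 0.05, as did 13.6% of all tested genes. In DKO it called 0 members, beside 0.0174% of all tested genes higher and 0% lower, and 0 members had an unadjusted p under 0.05, where 254 of the 11520 genes did. A moderated F test over the 5 contrasts with WT called 11 members (14.3%), beside 43% of all tested genes. These were Atp5sl, Cox7a2l, Ndufa3, Ndufa6, Ndufs3, Ndufs4, Ndufv2, Ndufv3, Sdhd, Uqcr11 and Uqcrb.

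The members' median log2 fold changes were 0.11 for cluster Tg, 0.11 for miR-23 Tg, 0.00 for miR-27 Tg, -0.03 for DKO and -0.11 for miR-24 Tg, while the medians over all tested genes lay between -0.00 and 0.02. The median absolute log2 fold change was 0.14 for members and 0.22 for all tested genes in miR-27 Tg, and 0.16 against 0.21 in cluster Tg. In miR-23 Tg it was 0.13 for members and 0.12 for all tested genes, and in DKO 0.05 and 0.06. The median standard error was 0.14 for members and 0.13 for all tested genes.

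**Figure D2:**
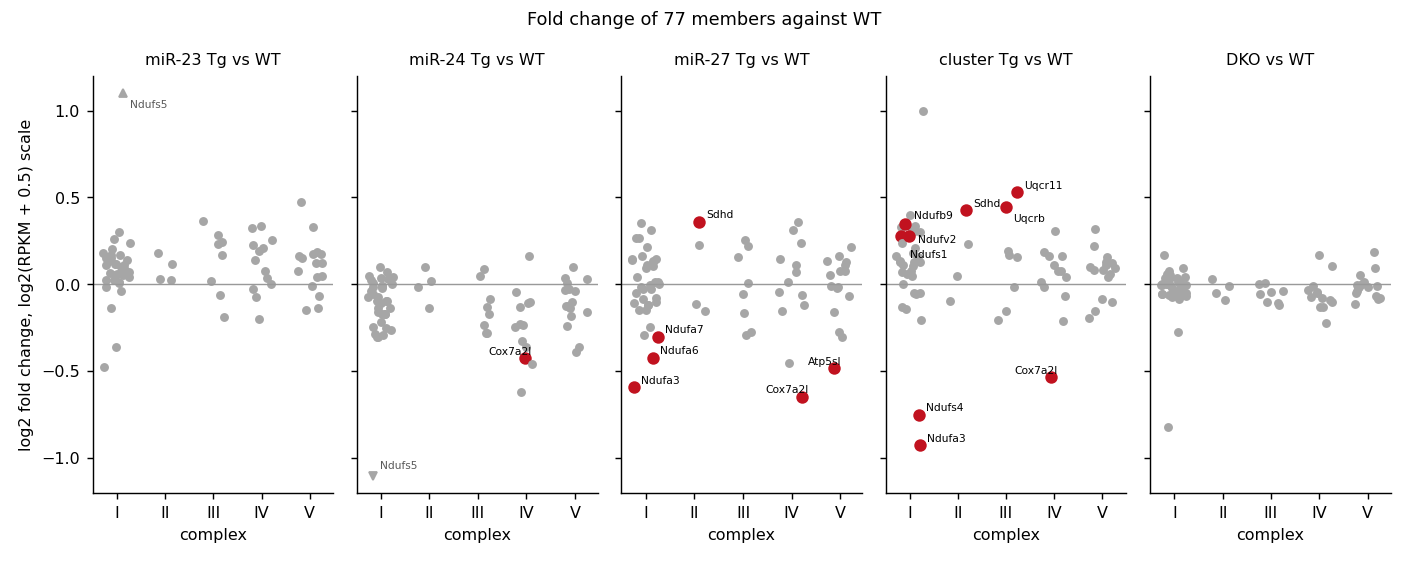
Log2 fold change against WT, on the log2(RPKM + 0.5) scale, of the 77 tested members in each of the 5 comparisons, by complex. Red points are members called by limma (adjusted p under 0.05), and triangles mark Ndufs5 values beyond the axis. Called members number 0, 1, 6, 9 and 0 in the panels for miR-23 Tg, miR-24 Tg, miR-27 Tg, cluster Tg and DKO.

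Markers of other cells and of proliferation moved with the same genotypes. Of 9 tested B cell markers, limma called 9 higher in miR-27 Tg and 6 in miR-24 Tg. It called 0 in cluster Tg (3 at an unadjusted p under 0.05) and 0 in miR-23 Tg (8 at an unadjusted p under 0.05). Of 6 tested myeloid markers, miR-27 Tg had 3 called higher (Itgam, Lyz2 and Csf1r). The 1 called higher in miR-24 Tg was Lyz2, and the 1 in cluster Tg was Itgam. These markers did not move alike: in miR-23 Tg Itgam averaged 0.76 RPKM, against 0.60 in WT, and Lyz2 14.9, against 2.36 in WT. Of 5 plasma cell markers, 3 were called higher in miR-27 Tg (Igj, Mzb1 and Prdm1) and 2 in miR-24 Tg (Prdm1 and Igj). Of 4 NK cell markers, miR-27 Tg had 2 called higher, while cluster Tg and miR-24 Tg each had 1. Of 2 CD8 T cell markers, Cd8a was called higher in miR-27 Tg. Of the 7 Treg markers, limma called Cd4 higher in miR-27 Tg and cluster Tg. It called 0 of the 7 in miR-23 Tg, where 4 had an unadjusted p under 0.05. Those with the smallest p, Ikzf2, Foxp3 and Il2ra, were lower there than in WT. The 6 erythroid or platelet genes reached a sum of 149.4 RPKM in miR-27 Tg library 2, against at most 19.2 in WT, and limma called 0 of the 3 tested (1 in miR-27 Tg and 0 in the others at an unadjusted p under 0.05). Of 20 cell cycle genes, 11 were called higher in cluster Tg and 20 in miR-27 Tg, and their summed level was 570.6 to 617.4 RPKM in cluster Tg and 581.7 to 1188 in miR-27 Tg, against 291.8 to 407.7 in WT. It was 584.9 to 643.1 in miR-23 Tg, where limma called 0 of the 20 and 20 had an unadjusted p under 0.05. Without the 2 libraries highest in B cell genes (miR-27 Tg library 3 and miR-24 Tg library 1), 3 members were still called lower and 0 higher in miR-27 Tg, the calls of Sdhd, Ndufa6 and Ndufa7 having ended, and 0 were called in miR-24 Tg. The part of other cells and of proliferation in the members' levels was not tested.

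Complex I held the largest fall. Ndufa3, a small accessory subunit of its membrane arm, had 133.1, 148.9 and 185.5 RPKM in cluster Tg and 184.5, 196.4 and 204.5 in miR-27 Tg, against 277.7, 291.0 and 313.5 in WT. Libraries of both genotypes lay below the 3 WT libraries without overlap. The fall was 1.90-fold in cluster Tg (log2 fold change -0.93 ± 0.16 SE, adjusted p = 0.000993) and 1.5-fold in miR-27 Tg (-0.59 ± 0.16, adjusted p = 0.012). In miR-23 Tg Ndufa3 had 229.1, 235.0 and 222.3 RPKM, also below each WT library, but did not pass (log2 fold change -0.36, adjusted p = 0.34). The DKO libraries ranged most widely, with 258.6, 337.5 and 410.3 RPKM, and the miR-24 Tg libraries had 237.8, 249.1 and 321.3. Ndufa3 (chromosome 7, 3617373 to 3620327) overlaps exons of Tfpt on the opposite strand, and counting by strand is not stated, so reads of the pair may be mixed.

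Ndufs4, an accessory subunit at the NADH-oxidising arm whose loss causes Leigh syndrome in humans and a similar disease in mice, had 16.51, 16.13 and 22.04 RPKM in cluster Tg, against 28.89, 31.84 and 31.49 in WT. The groups did not overlap, and the fall was 1.68-fold (log2 fold change -0.75 ± 0.14 SE, adjusted p = 0.00189). In miR-23 Tg, where it was the member with the smallest unadjusted p, Ndufs4 had 19.84, 26.41 and 20.27 RPKM, below each WT library but without passing (log2 fold change -0.47, adjusted p = 0.152). The miR-27 Tg libraries, at 21.22, 25.06 and 29.26, overlapped with WT (log2 fold change -0.29, adjusted p = 0.14). Neither miR-24 Tg (29.92, 29.47 and 32.15) nor DKO (28.83, 32.39 and 36.46) stood apart from WT. Calls of Ndufa3 in cluster Tg and miR-27 Tg and of Ndufs4 in cluster Tg held without any 1 of the 6 libraries compared.

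A further pair of accessory subunits fell in miR-27 Tg. Ndufa6, which anchors the acyl carrier protein to complex I, had 158.1, 151.8 and 137.9 RPKM in miR-27 Tg, against 203.7, 206.9 and 189.1 in WT (log2 fold change -0.42 ± 0.12 SE, adjusted p = 0.0198). Ndufa7 had 96.15, 110.6 and 99.82 RPKM in miR-27 Tg, against 123.4, 126.4 and 127.7 in WT (-0.30 ± 0.10, adjusted p = 0.0434). Neither overlapped with WT. In cluster Tg, which also overexpresses miR-27, Ndufa6 had 194.1, 168.9 and 220.3 RPKM and Ndufa7 had 125.8, 130.0 and 141.6, and neither passed. The Ndufa6 call ended without miR-27 Tg library 3, WT library 1 or WT library 2, and that of Ndufa7 ended in 5 of the 6 fits that left out a library, the exception being miR-27 Tg library 2, and also with no filter on low values.

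Complex I members that rose did so in cluster Tg. Ndufb9, an accessory subunit of the distal membrane arm, had 162.5, 137.6 and 157.0 RPKM, against 118.1, 119.3 and 120.5 in WT (log2 fold change 0.35 ± 0.12 SE, adjusted p = 0.0469). Of the iron-sulphur subunits of the core, Ndufv2 had 65.44, 56.35 and 66.47 RPKM, against 52.39, 52.22 and 49.99 in WT (0.28, adjusted p = 0.0456), and Ndufs1 had 44.84, 37.45 and 46.87, against 34.36, 33.67 and 37.88 in WT (0.28, adjusted p = 0.0446). Ndufs1 overlapped with WT in 1 library. These 3 calls lay near the threshold and ended without cluster Tg library 1, cluster Tg library 3, WT library 1 or WT library 2, and those of Ndufb9 and Ndufv2 also without WT library 3. Exons of Ndufb9 overlap Gm49356 on the same strand, and those of Ndufs1 overlap Eef1b2 and Ino80dos on the opposite strand. Another annotated gene was at least 97% identical to 28.7% of the Ndufb9 transcript and, for Ndufs1, to 9.5%. Ndufb8, next in order, stood at 126.3 ± 10.8 RPKM in cluster Tg (SD, n = 3) and 95.5 ± 2.0 in WT and did not pass (adjusted p = 0.0544).

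Complex II, succinate dehydrogenase, belongs to both the respiratory chain and the tricarboxylic acid cycle, and its 4 genes did not move together. Sdhd, a membrane anchor that binds ubiquinone, had 84.84, 79.17 and 92.70 RPKM in cluster Tg and 70.56, 86.17 and 89.38 in miR-27 Tg, against 62.23, 65.64 and 62.55 in WT. Libraries of both genotypes lay above the 3 WT libraries. The rise was 1.34-fold in cluster Tg (log2 fold change 0.43 ± 0.11 SE, adjusted p = 0.0121) and 1.28-fold in miR-27 Tg (0.36 ± 0.11, adjusted p = 0.0236). Leaving out any 1 of the 6 libraries kept the call in cluster Tg, while that in miR-27 Tg ended without miR-27 Tg library 2 or 3 or WT library 1 or 3, and with a fit to only the compared groups. In miR-23 Tg Sdhd had 70.58, 73.73 and 71.62 RPKM, above each WT library, and did not pass; miR-24 Tg had 60.35, 61.22 and 71.98 and DKO 54.40, 63.54 and 72.90.

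The other 3 subunits of complex II did not pass in any comparison with WT. The flavoprotein Sdha averaged 91.7 ± 5.41 RPKM in cluster Tg and 90.7 ± 5.37 in miR-27 Tg, against 98.1 ± 5.52 in WT (SD, n = 3 each). Sdhb, the iron-sulphur subunit, averaged 129 ± 10.8 in cluster Tg and 130 ± 18.5 in miR-27 Tg, against 110 ± 3.99 in WT. The second anchor, Sdhc, averaged 66.0 ± 1.88 in cluster Tg and 57.4 ± 1.17 in miR-27 Tg, against 63.9 ± 2.41 in WT. In miR-27 Tg its 3 libraries (57.01, 58.69 and 56.45) lay below the WT libraries (61.62, 66.43 and 63.68), with adjusted p = 0.112.

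In complex III 2 members rose, both in cluster Tg. Uqcr11, the smallest subunit, had 90.10, 89.78 and 118.5 RPKM in cluster Tg, against 63.74, 70.05 and 70.97 in WT (log2 fold change 0.53 ± 0.16 SE, adjusted p = 0.026). Uqcrb, a subunit at the ubiquinone site, had 58.34, 54.60 and 57.24, against 40.59, 44.81 and 39.41 in WT (0.44 ± 0.12, adjusted p = 0.0179). No cluster Tg library overlapped with WT for these genes. The calls of Uqcr11 ended without cluster Tg library 3 or without any 1 WT library, and those of Uqcrb without cluster Tg library 1, WT library 1 or WT library 3. Parts of their transcripts, 38.4% for Uqcr11 and 68.6% for Uqcrb, were at least 97% identical to other annotated genes, so their levels are uncertain. Exons of Uqcrb also overlap Gm10767 on the opposite strand. In miR-23 Tg Uqcrb averaged 51.1 ± 7.96 RPKM, against 41.6 ± 2.84 in WT (SD, n = 3 each), and did not pass (adjusted p = 0.334).

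Complex IV had a single called gene, and it is not a subunit of the enzyme. Cox7a2l encodes a factor of respiratory supercomplexes, which were not measured here. Another annotated gene is at least 97% identical to 17.8% of its transcript. Cox7a2l had 100.5, 106.3 and 137.1 RPKM in cluster Tg, 106.5, 94.57 and 115.3 in miR-27 Tg and 109.3, 123.8 and 135.9 in miR-24 Tg, against 162.3, 165.9 and 166.0 in WT. The 9 libraries of these genotypes lay below each WT library. In miR-27 Tg it fell 1.56-fold (log2 fold change -0.65 ± 0.12 SE, adjusted p = 0.00158), in cluster Tg 1.45-fold (-0.54 ± 0.12, adjusted p = 0.00611) and in miR-24 Tg 1.34-fold (-0.43 ± 0.12, adjusted p = 0.0436). The calls in miR-27 Tg and cluster Tg held without any 1 of the 6 libraries compared, and that in miR-24 Tg ended in 5 of 6 such fits, the exception being miR-24 Tg library 3, and also with no filter on low values and with only the compared groups fitted.

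In miR-23 Tg Cox7a2l had 141.9, 151.9 and 137.4 RPKM, also below each WT library, and did not pass (log2 fold change -0.20, adjusted p = 0.517). DKO libraries had 143.2, 146.8 and 179.8 and overlapped with WT. Cox7a2l was the one tested member of complex IV that limma called in any comparison with WT. Cox6a1 in miR-23 Tg, the one other at an unadjusted p under 0.05, averaged 310 ± 28.4 RPKM, against 246.8 ± 8.13 in WT (SD, n = 3 each; adjusted p = 0.359). Cox5b averaged 47.1 ± 8.85 RPKM in miR-24 Tg and 51.5 ± 14.4 in DKO, against 58.6 ± 4.42 in WT.

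The 1 gene of the Atp5 rows that limma called in the comparisons with WT was Atp5sl, whose product is not a subunit of the enzyme. Atp5sl had 20.12, 16.80 and 16.04 RPKM in miR-27 Tg, against 26.92, 24.83 and 22.73 in WT. The groups did not overlap, and the fall of 1.40-fold (log2 fold change -0.48 ± 0.08 SE, adjusted p = 0.000968) held without any 1 of the 6 libraries. In cluster Tg Atp5sl had 22.13, 23.97 and 20.72 RPKM and did not pass (-0.15, adjusted p = 0.211). The miR-23 Tg libraries (28.04, 27.71 and 27.76) and miR-24 Tg libraries (26.88, 26.66 and 26.28) were tightly grouped, and DKO had 23.86, 24.38 and 26.89. The catalytic subunit Atp5b did not pass in miR-27 Tg (adjusted p = 0.147), where it averaged 538.5 ± 66.3 RPKM, against 460.9 ± 16.8 in WT. For subunit c, Atp5g1 averaged 7.26 ± 0.251 RPKM in miR-23 Tg, against 5.21 ± 1.46 in WT (adjusted p = 0.311), and Atp5g3 averaged 374.7 ± 28.4 in cluster Tg and 387.3 ± 69.1 in miR-27 Tg, against 364.6 ± 34.0 in WT.

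**Figure D3:**
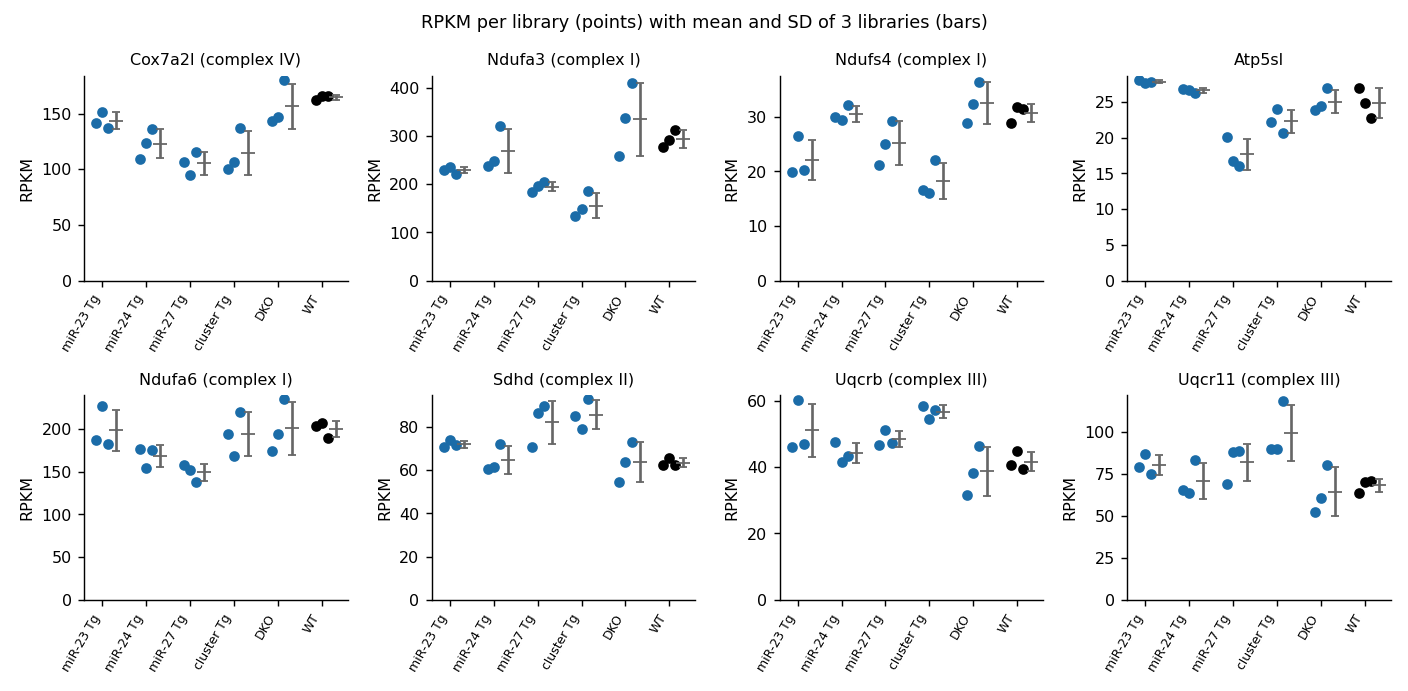
RPKM in each library of 8 members, with points for libraries and bars for the mean and SD of 3 libraries, and WT at the right in black. Ndufa3, Ndufs4 and Cox7a2l have their lowest means in cluster Tg or miR-27 Tg, Atp5sl and Ndufa6 in miR-27 Tg, while Sdhd, Uqcrb and Uqcr11 have their highest means in cluster Tg.

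The counts of calls depended on single libraries. In miR-27 Tg the count of members that rose was 6 without miR-27 Tg library 1 and 0 without miR-27 Tg library 2 or 3 or WT library 1 or 3, and the count that fell was 3 without miR-27 Tg library 3, WT library 1 or WT library 2. In cluster Tg 3 members fell whichever library was left out. The 6 that rose in cluster Tg became 2 without cluster Tg library 1, 3 without cluster Tg library 3, 1 without WT library 1, 2 without WT library 2 and 2 without WT library 3. With no filter on low values, with median-of-ratios scaling or without the mean-variance trend, 3 members rose in cluster Tg, and the calls of Ndufb9, Ndufs1 and Ndufv2 ended. Those of Ndufs1 and Ndufv2 also ended with only the compared groups fitted, that of Ndufs1 with the transcript length trend removed, that of Ndufb9 at a mean of at least 5 RPKM and that of Ndufv2 with the replicate number as a block. For miR-24 Tg the 1 fall became 2 without miR-24 Tg library 3 and 0 without any 1 of the 5 others.

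Below these single genes, the members of a library tended to move together. With each gene set against its WT mean, the members' median was -0.23, -0.03 and 0.20 on the log2 scale in the 3 DKO libraries and -0.14, 0.07 and 0.13 in the 3 miR-27 Tg libraries. It was 0.13, 0.03 and 0.21 in cluster Tg, 0.06, 0.23 and 0.00 in miR-23 Tg and -0.17, -0.17 and 0.02 in miR-24 Tg, against -0.02, 0.00 and 0.01 in WT, which lie near 0 by construction. The genotypes overlapped, and the DKO libraries alone spanned the range of the others except miR-23 Tg library 2 and cluster Tg library 3. In DKO library 1, 7 of the 77 members were above their WT mean, and in DKO library 3, 74 were. Over all tested genes the median in a library stayed between -0.01 and 0.03.

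The 5 complexes shared these shifts in the DKO libraries. In DKO library 1 the medians of complexes I to V were -0.20, -0.21, -0.35, -0.33 and -0.20, and in DKO library 3 they were 0.21, 0.14, 0.19, 0.21 and 0.18. Transcript length was taken as the median over a gene's annotated transcripts, non-coding ones included, and by it 68 of the 76 tested members with a length were under 1000 bases. By the transcript with the longest coding sequence, 44 of the 76 were. Among 4622 other tested genes under 1000 bases by the first measure, a group formed after seeing these values, library medians in the 5 genotypes other than WT ran from -0.04 to 0.05, and among 6711 of 1000 bases or more from -0.04 to 0.05. The short and long genes moved in opposite directions in DKO library 1 (-0.04 and 0.04), DKO library 3 (0.04 and -0.04) and miR-23 Tg library 2 (0.05 and -0.03). They did so as well in miR-24 Tg libraries 1 (-0.03 and 0.04) and 2 (-0.01 and 0.04). In miR-27 Tg the values were -0.01 and 0.05 in library 1 and 0.004 and -0.015 in library 3. In cluster Tg library 3, where the members' median was 0.21, both were near 0 (0.01 and -0.00), and in cluster Tg library 1 both were 0.02. The part of transcript length or RNA quality in the shifts was not tested.

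**Figure D4:**
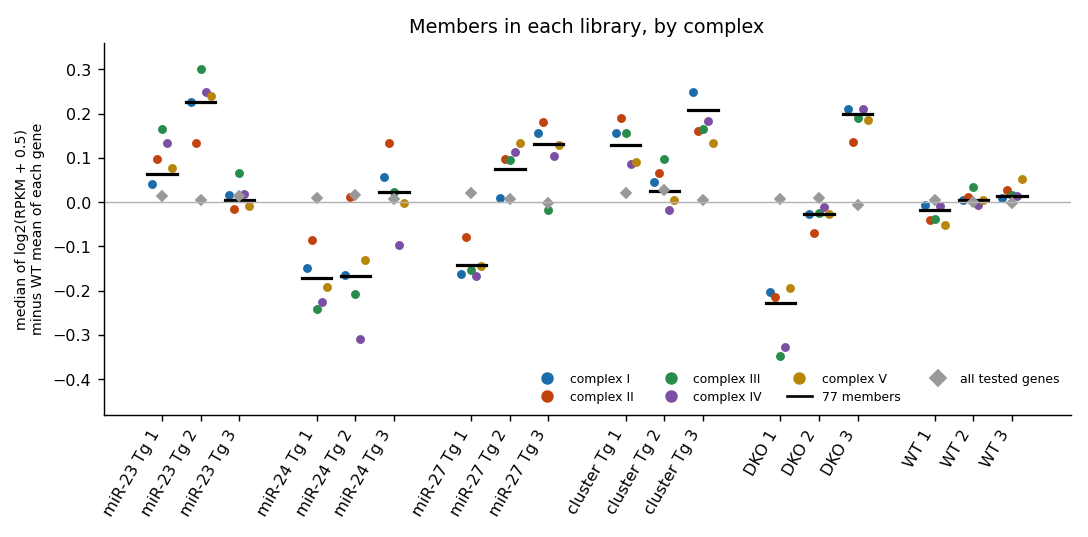
Median over members of log2(RPKM + 0.5) minus the WT mean of each gene, in each of the 18 libraries, for the 77 tested members (bars), for complexes I to V (points) and for all tested genes (diamonds). Members run from -0.23 in DKO library 1 to 0.23 in miR-23 Tg library 2, while all tested genes stay between -0.01 and 0.03.

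Few members held a match to a seed, and their 3′ UTRs were short. Over 75 tested members with an annotated 3′ UTR of at least 50 bases, the median length was 203 bases, beside 1152 for the 10557 tested genes with one. A 7-base match was present for miR-23 in 4 members (5.3%, beside 16.4% of the tested genes), for miR-24 in 6 (8.0%, beside 19.1%) and for miR-27 in 6 (8.0%, beside 17.2%). A match is a description of the letters and not a shown site.

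Tested members with a miR-23 match were Ndufa3, Ndufs4, Ndufv1 and Uqcrfs1. In miR-23 Tg 0 of the 4 were called by limma, with 2 (Ndufs4 and Ndufa3) at an unadjusted p under 0.05 and below each WT library. In cluster Tg Ndufa3 and Ndufs4 fell, as given above, while Ndufv1, the flavin subunit of complex I, had a log2 fold change of 0.05 (adjusted p = 0.763) and Uqcrfs1, the Rieske protein of complex III, -0.20 (adjusted p = 0.279). In DKO the 4 had log2 fold changes of 0.17, 0.08, -0.02 and -0.00 in the order Ndufa3, Ndufs4, Ndufv1 and Uqcrfs1, none of them called.

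Among tested members a miR-24 match was present in Atp5d, Atp5g1, Cox7a2l, Ndufa12, Sdha and Sdhc. Of these, Cox7a2l fell in miR-24 Tg, and the others had log2 fold changes from -0.36 (Atp5d, adjusted p = 0.188) to 0.10 (Sdha). Cox7a2l fell as well in miR-27 Tg, whose microRNA had no such match in its 3′ UTR. For miR-27 the tested members with a match were Atp5s, Atp5sl, Ndufa2, Ndufs4, Sdha and Uqcrq, and of these Atp5sl fell in miR-27 Tg. The other 5 had log2 fold changes of -0.30 (Atp5s), -0.10 (Ndufa2), -0.29 (Ndufs4), -0.11 (Sdha) and -0.06 (Uqcrq). The 4 other members that fell in miR-27 Tg (Cox7a2l, Ndufa3, Ndufa6 and Ndufa7) held no miR-27 match of this kind.

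Over all tested genes with an annotated 3′ UTR, the median log2 fold change in miR-27 Tg was -0.06 for genes with a miR-27 match and 0.02 for those without. For miR-23 Tg and miR-23 matches these medians were -0.05 and 0.02, and for miR-24 Tg and miR-24 matches they were -0.03 and 0.02. Genes with and without a match were not matched for 3′ UTR or transcript length. The part of the seed in these differences was not tested.

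**Figure D5:**
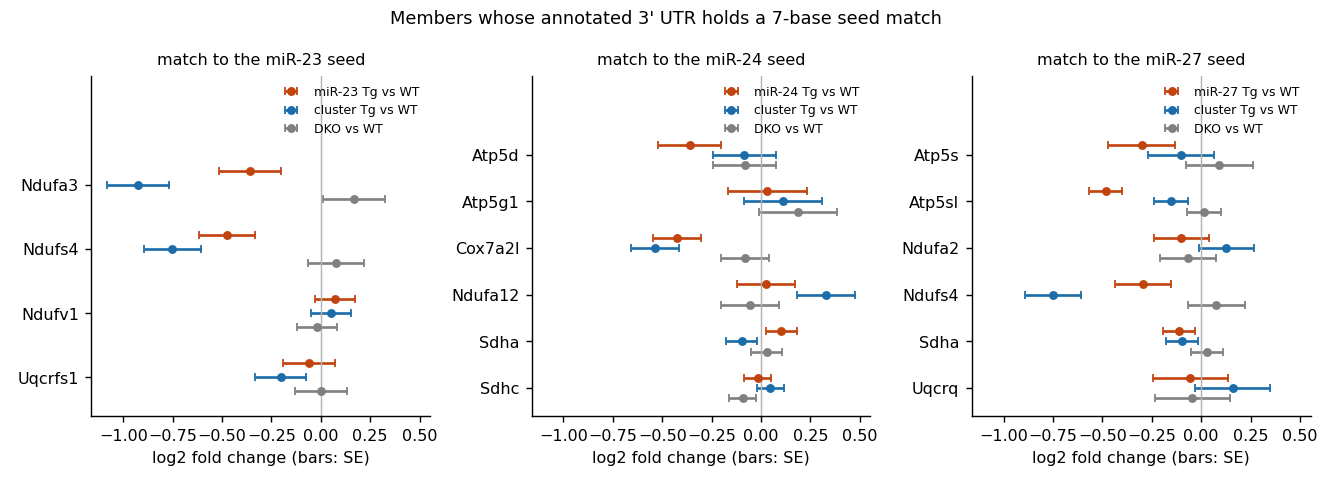
Log2 fold change against WT, with SE, of tested members whose annotated 3′ UTR holds a 7-base match to the seed of miR-23, miR-24 or miR-27, in the genotype that overexpresses that microRNA, in cluster Tg and in DKO. Ndufa3 (-0.93) and Ndufs4 (-0.75) lie lowest in cluster Tg, and Atp5sl (-0.48) lies lowest in miR-27 Tg among members with a miR-27 match.

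Set directly against miR-23 Tg, miR-27 Tg had 0 members higher (12.4% of all tested genes were) and 5 lower (10.9%), namely Atp5sl, Cox7a2l, Ndufa6, Ndufa7 and Ndufs6. For Atp5sl the means were 17.7 ± 2.17 RPKM in miR-27 Tg and 27.8 ± 0.177 in miR-23 Tg (SD, n = 3 each), a 1.57-fold difference (log2 fold change -0.65, adjusted p = 0.000169). Ndufs6, a zinc-binding accessory subunit of complex I, had 52.23, 58.26 and 63.01 RPKM in miR-27 Tg and 75.55, 87.57 and 64.32 in miR-23 Tg (-0.38, adjusted p = 0.0393). Against WT it did not pass in either genotype, and its exons overlap Mrpl36 on the opposite strand. The count of 5 became 2 without miR-27 Tg library 2, 1 without miR-23 Tg library 2, and 3 without miR-27 Tg library 1 or 3 or miR-23 Tg library 1. The Ndufs6 call also ended with no filter on low values, and those of Ndufs6 and Ndufa6 ended with only the compared groups fitted.

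Cluster Tg set against miR-27 Tg had 2 members higher (3.5% of all tested genes were) and 0 lower (3.35%). Atp5sl averaged 22.3 ± 1.63 RPKM in cluster Tg and 17.7 ± 2.17 in miR-27 Tg (log2 fold change 0.33, adjusted p = 0.033), and Ndufa7 averaged 132 ± 8.19 in cluster Tg and 102 ± 7.54 in miR-27 Tg (0.37, adjusted p = 0.046). Ndufs4 averaged 18.2 ± 3.31 RPKM in cluster Tg and 25.2 ± 4.02 in miR-27 Tg and Ndufa3 averaged 155.8 ± 26.9 in cluster Tg and 195.1 ± 10.1 in miR-27 Tg, and neither difference passed (adjusted p = 0.0667 and 0.206). The Ndufa7 call ended whichever of the 6 libraries was left out, and that of Atp5sl ended without cluster Tg library 1 or 2 or miR-27 Tg library 2 or 3. With only the compared groups fitted, neither was called.

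Among the 3 members nearest to a call in directions with few or no calls, miR-24 Tg had lower means for Ndufv3 (98.2 ± 10.9 RPKM, against 120.9 ± 1.90 in WT, adjusted p = 0.102), Atp5l (13.9 ± 2.08, against 18.4 ± 2.44 in WT, adjusted p = 0.114) and Ndufs7 (70.7 ± 9.64, against 86.7 ± 3.08 in WT, adjusted p = 0.116). On the higher side Sdha, Atp5sl and Ndufc1 had log2 fold changes of 0.10 each in miR-24 Tg. In miR-27 Tg the higher side held Ndufb8 (123.4 ± 20.1 RPKM, against 95.5 ± 2.0 in WT, adjusted p = 0.075), Atp5b and Ndufb6. In DKO those nearest were Sdhc (60.1 ± 6.01 RPKM, against 63.9 ± 2.41 in WT), Ndufb2 (57.0 ± 18.2, against 66.5 ± 5.48 in WT) and Cox5b on the lower side, with Ndufa3, Atp5g1 and Ndufb8 on the higher side. Each had an adjusted p of 1 and groups that overlapped.

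Promoters of respiratory chain genes are known for sites of nuclear respiratory factor 1 (NRF1) and of the ETS factor GABPA (NRF2). The 300 bases from 250 before to 50 after the annotated start (RefSeq, GRCm38.p6) were matched for 64 tested members and searched on both strands, and overlaps between motifs were allowed. The NRF1 motif (GCGC, any base, then TGCGC) was present in 15 of 64 (23.4%), beside 11.3% of 8519 tested genes and 4.78% of 27025 promoters. The ETS motif CCGGAAG was present in 15 (23.4%), beside 20.0% of tested genes and 9.12% of promoters. The YY1 motif (AA, any base, then ATGGCGGC) was present in 5 (7.8%, beside 2.81% and 1.07%) and TATAAA in 5 (7.8%, beside 6.63% and 14.2%).

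Promoters of 2 complex II genes are shown because the one gene rose in cluster Tg and miR-27 Tg and the other did not, with motif matches in capitals. The Sdhd window (chr9:50603800-50604099, minus strand) held an NRF1 match followed by an ETS match, both on the strand opposite to the one printed, and the Sdha window (chr13:74350191-74350490, minus strand) held 3 NRF1 matches. The Sdhb window, not printed, also held an ETS match, and Sdhb was not called in any comparison with WT. A link between motif matches and the changes was not tested.
Sdhd: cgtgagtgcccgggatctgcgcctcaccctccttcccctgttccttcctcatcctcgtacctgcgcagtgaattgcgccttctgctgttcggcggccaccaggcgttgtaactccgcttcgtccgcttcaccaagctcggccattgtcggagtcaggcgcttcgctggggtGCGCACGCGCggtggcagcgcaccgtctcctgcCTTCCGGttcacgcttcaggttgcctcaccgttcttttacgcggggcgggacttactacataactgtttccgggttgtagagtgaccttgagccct
Sdha: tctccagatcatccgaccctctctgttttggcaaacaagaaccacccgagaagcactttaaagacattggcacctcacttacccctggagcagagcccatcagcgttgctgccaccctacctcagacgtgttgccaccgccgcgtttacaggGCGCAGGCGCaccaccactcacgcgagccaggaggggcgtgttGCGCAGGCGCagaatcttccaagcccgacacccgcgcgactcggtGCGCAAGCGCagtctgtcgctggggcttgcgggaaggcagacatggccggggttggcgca

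Genes that serve the chain were described from lists. Of all tested genes, 15.9% rose and 12.7% fell in miR-27 Tg, and 13.8% rose and 10.5% fell in cluster Tg. In miR-24 Tg 4.6% rose and 4.38% fell. The counts of the lists are to be read beside these shares. Of 13 mitochondrially encoded subunits, 0 were tested. Of 4 tested subunits outside the symbol rule, Atpif1, the inhibitor of ATP synthase, rose in cluster Tg (107 ± 11.3 RPKM, against 79.0 ± 3.07 in WT, adjusted p = 0.0323). Cyc1 averaged 105 ± 2.49 in cluster Tg, against 90.0 ± 3.86 in WT, without passing (adjusted p = 0.0977). Ndufab1 averaged 3.35 ± 0.656 RPKM in cluster Tg, against 2.37 ± 0.618 in WT, and did not pass either (adjusted p = 0.346). Of 14 complex I assembly genes, 1 rose in cluster Tg and 1 rose and 1 fell in miR-27 Tg. In miR-24 Tg 1 of the 14, Tmem126b, rose (18.1 ± 1.62 RPKM, against 13.8 ± 0.571 in WT, adjusted p = 0.0388). Ndufaf3 was the one that rose in cluster Tg and miR-27 Tg, to 19.4 ± 0.490 RPKM in cluster Tg (adjusted p = 0.00112) and 16.1 ± 0.166 in miR-27 Tg (adjusted p = 0.0279), against 12.8 ± 0.304 in WT, and Nubpl, which delivers iron-sulphur clusters to complex I, fell in miR-27 Tg.

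Of 33 assembly genes of complexes II to V, 1 rose and 4 fell in miR-27 Tg and 0 rose and 3 fell in cluster Tg. Sdhaf1, which helps to mature Sdhb, fell in miR-27 Tg to 40.9 ± 8.98 RPKM, against 68.1 ± 4.22 in WT (log2 fold change -0.75, adjusted p = 0.000548). In miR-24 Tg 0 rose and 2 fell, Coa3 and Cmc1. Cmc1, a complex IV assembly gene, fell to 18.1 ± 2.34 RPKM in cluster Tg, 16.4 ± 0.534 in miR-27 Tg and 17.5 ± 0.931 in miR-24 Tg, against 22.6 ± 0.229 in WT. Of 16 regulators of mitochondrial biogenesis and DNA, 0 rose and 1 fell in miR-27 Tg and 0 rose and 3 fell in cluster Tg. The 3 were Pprc1, a coactivator of the PGC-1 family (14.0 ± 1.26 RPKM in cluster Tg, against 19.0 ± 0.725 in WT), the mitochondrial DNA polymerase gene Polg and the helicase gene Peo1. In miR-24 Tg 1 of the 16, Yy1, fell.

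The tricarboxylic acid cycle list had mixed calls: 4 of 18 rose and 2 fell in miR-27 Tg, and 5 rose and 2 fell in cluster Tg. Idh3a, a subunit of NAD-dependent isocitrate dehydrogenase, rose to 37.3 ± 4.70 RPKM in cluster Tg (adjusted p = 0.00258) and 37.9 ± 4.81 in miR-27 Tg (adjusted p = 0.0017), against 26.3 ± 1.07 in WT. It was the 1 gene of this list called in miR-24 Tg (34.6 ± 1.90 RPKM, adjusted p = 0.0238). Pdha1, the entry enzyme from pyruvate, fell in miR-27 Tg to 49.3 ± 1.68 RPKM, against 82.2 ± 5.79 in WT (adjusted p = 0.000138), and Suclg2 fell in both. Of 13 coenzyme Q synthesis genes, 1 rose and 2 fell in miR-27 Tg and 0 rose and 1 fell in cluster Tg, while Adck4 alone was called in miR-24 Tg, where it was lower. Of the 10 mitochondrial carriers and porins limma called 0 in miR-27 Tg (4 at an unadjusted p under 0.05) and 0 in cluster Tg (0 at an unadjusted p under 0.05), and Ucp2, an inner membrane carrier, did not pass in miR-27 Tg (adjusted p = 0.0523), with 241 ± 6.89 RPKM there, against 179 ± 22.5 in WT.

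Cytosolic ribosomal protein genes, a list outside the mitochondrion, had more falls. In miR-27 Tg 27 of 36 fell and 0 rose (median log2 fold change -0.61), and in cluster Tg 18 fell and 0 rose (-0.49), where the members' medians were 0.00 and 0.11. Rps24, for example, averaged 339 ± 55.1 RPKM in cluster Tg and 283 ± 28.2 in miR-27 Tg, against 519 ± 57.1 in WT. In miR-24 Tg 1 of the 36 fell. Of the 144 tested genes of these lists together, ribosomal genes included, limma called 44 in miR-27 Tg, 34 in cluster Tg and 7 in miR-24 Tg. In either direction, 28.6%, 24.4% and 8.98% of all tested genes were called there. Of the 144, limma called 0 in miR-23 Tg (10 at an unadjusted p under 0.05) and 0 in DKO (0 at an unadjusted p under 0.05).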

How the data were processed

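Total RNA, small RNAs kept, was extracted from sorted Treg cells, and TruSeq RNA libraries were sequenced on an Illumina HiSeq, per the labels' protocols. The authors deposited 1 table of RPKM values, with 18 library columns. STAR 2.2.0c, HOMER and mm10 (GRCm38) are named in the submitters' processing notes without their roles, and the annotation and the RPKM step are not given in the sources used here. The table has 23953 rows, of which 4 with a repeated symbol were left out and 5198 were listed at 0 in each library, and 27 symbols looked like dates.

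Depth was estimated from the steps between low RPKM values of 1536 genes with a single annotated transcript. The depth was chosen as the one at which most of these values were whole reads. There 11% were whole reads within 0.02, beside a median of 2.2% over the depths tried. A share above the median was fixed by that choice and does not check the depths. They are approximate, and no count test was run. The 11520 genes that reached 1 RPKM in 3 or more libraries were tested on log2(RPKM + 0.5), which understates the change of low genes, with limma 3.58.1 in R 4.3.3 in a single fit over the 18 libraries with a mean-variance trend (prior of 2.26 degrees of freedom). Tests were two-sided, with Benjamini-Hochberg adjustment over the genes of a comparison. The fit was tested on simulated data. Tables were handled with Python 3.11.15 and pandas 2.3.3.

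Members, lists and tests were chosen with earlier results of these data known. Named members were up to 5 called rises and 5 called falls per comparison with WT, otherwise the 3 with the smallest unadjusted p, the subunits of complex II, subunit c genes, tissue isoforms, the 3 highest of each complex and members with a seed match, and up to 3 genes per list. Symbols were matched to GENCODE M21 directly (22642) or by a synonym (921), 3′ UTRs of at least 50 bases were searched, and copies were stretches of at least 50 bases at 97% identity found with BLAST. The main fit holds no block for the replicate number. Alternatives were a pseudocount of 0.1 or 1, no filter, a mean of at least 5 RPKM, median-of-ratios scaling, removal of a transcript length trend, no mean-variance trend, the replicate number as a block, only the compared groups, leaving out each library, and leaving out the pair of libraries highest in B cell genes. The labels give no batch, and no sequence from chromosome 18 is printed.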

Additional observations from a re-analysis of the deposited data

How the results depend on the processing

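For miR-24 Tg against WT, the 1 member called lower became 0 with no filter, with only the compared groups and without both libraries high in B cell genes, and 2 with the replicate block, and ran from 0 to 2 over fits leaving out a library. For miR-27 Tg against WT, the 1 called higher became 2 with the transcript length trend removed or the replicate block, and 0 with only the compared groups or without both libraries (0 to 6 over left-out libraries), and the 5 called lower became 3 without both libraries (3 to 5). For cluster Tg against WT, the 6 called higher became 3 with no filter, median-of-ratios scaling or no mean-variance trend (1 to 6 over left-out libraries), and the 3 called lower stayed at 3. For miR-27 Tg against miR-23 Tg, the 5 called lower became 2 without both libraries (1 to 4), and 3 of the 5 kept their call with only the compared groups. For cluster Tg against miR-27 Tg, the 2 called higher became 1 with no filter, median-of-ratios scaling or no mean-variance trend and 0 with only the compared groups or without both libraries (0 to 2), and the 0 called lower became 1 with the transcript length trend removed or the replicate block (0 to 1). In miR-23 Tg and DKO the count was 0 in both directions under each alternative. The cause of these shifts was not tested. No called member changed direction under any of the alternatives. The labels do not say whether the replicate numbers pair the libraries. Over 45 pairs of different groups with the same number, the correlation of their deviations over all tested genes ran from -0.167 to 0.188. Its median was 0.00397, and 6 were over 0.1. The members' median was higher in library 3 than in library 1 of each group (for DKO 0.199 and -0.229) except miR-23 Tg (0.005 and 0.063). A batch shared by libraries of the same number was not tested. With 3 libraries a group and depths known only approximately, counting error was not separated from the spread between libraries.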
